A study of Mus musculus with 6 samples.

Results

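Segregation of chromosomes in mitosis rests on 51 genes described here, which encode the kinetochore, the spindle checkpoint, the chromosomal passenger complex, condensin and the factors that hold and release sister chromatids. They were chosen by name, with earlier results of these data known, and all 51 were found among the 21362 genes of the count table. RNA sequencing measured them in CD4+ T cells of the mouse, in 6 libraries. The series concerned the effect of sorafenib, an inhibitor of several protein kinases, on this population, with regulatory T cells named in its design. Besides a number, the labels state for each library only its cell type, CD4+T cell, and no treatment, strain, age or culture. Each library was therefore read on its own, without averages and without tests, and treated cells were not set against untreated ones. The libraries are called library 1 to library 6, and 6 values in a row stand in that order. Whether they came from separate animals or cultures is not stated, so all differences below are between single libraries.

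Total counts over genes lay between 32435799 and 36316162 per library. A level in CPM is the read count scaled to a common library total, with a correction for composition by the TMM method, and it serves to compare 1 gene between libraries. A level in FPKM, the authors' value per kilobase of gene and library size, serves to compare genes. The gene lengths behind it are not given, so every order of genes by FPKM below depends on lengths that are unknown. Fold range means the highest of the 6 libraries over the lowest, on the log2 CPM scale after adding a prior count of 2. Its 95% interval is for the ratio of the scaled counts without the prior count, and it covers counting error only. The interval does not allow for the picking of the highest and lowest library. For a narrow range it can therefore miss no change through counting error alone. CD4+ T cell identity was visible in every library, with Cd4, the co-receptor of helper T cells, between 412 and 482 CPM. Of 10 T cell markers, 0 ranged 2-fold or more, against 10.5% of the 11516 genes compared below. With so few markers, that number does not set them apart from other genes. Their median fold range was 1.19, against 1.29 for all genes, and Cd28 had the widest, 1.67-fold. Foxp3, the defining factor of regulatory T cells, was low, between 7.37 and 13.4 CPM. Summed markers of other cells were scarce, at most 10.1 CPM for CD8 T cells, 8.17 CPM for B cells, 2.09 CPM for fibroblasts, 0.780 CPM for myeloid cells, 0.287 CPM for erythroid cells, 0.260 CPM for hepatocytes and 0.225 CPM for natural killer cells. Each of these markers found in the table had at least 1 read in some library, as did every gene of the table.

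The kinetochore is the protein assembly on each centromere that grips spindle microtubules. Its inner layer sits on nucleosomes that carry the histone variant CENP-A, and its outer layer binds microtubules and recruits the spindle checkpoint, which holds back the anaphase-promoting complex until every chromosome is attached. Condensin compacts chromosomes, and separase cuts the cohesin that joins sisters. Most of these genes are transcribed late in the cell cycle, and in T cells they are known as a mark of clonal expansion after activation.

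Promoters of such genes are known for a CCAAT box and for the cell cycle genes homology region, or CHR, which is bound by the DREAM and MuvB complexes, and some carry E2F motifs. RefSeq promoter windows on GRCm38.p6, from 250 bases before to 50 bases after the start, were matched for 44 of the 51 genes, with 48 windows. They were searched on both strands for CCAAT, for TTTGAA or TTCGAA (CHR), and for TTNNCGC with each N a C or a G (E2F). A CCAAT box and an E2F motif can share bases, as can a CCAAT box and a CHR. CCAAT was found in 35 of the 48 windows, or 72.9%, against 37.4% of all 32851 windows of the table. CHR letters were found in 26, or 54.2%, against 19.2%, and both together in 23, or 47.9%, against 7.52%. An E2F motif was found in 15, or 31.2%, against 9.57%. Windows of 1 gene can overlap, and those of Bub3 hold the same sites. Counted per gene, CCAAT was found for 31 of the 44, against 41.1% of all 27025 genes of the promoter table. CHR was found for 25, or 56.8%, against 21.7%, and E2F for 15, or 34.1%, against 10.9%. Windows of genes that ranged under 2-fold carried the same letters, with CHR in 6 of 14 windows, CCAAT in 8 and E2F in 7. Those of genes that ranged 2-fold or more had them in 20, 27 and 8 of 34. The 150 bases before the start are printed below for 5 genes that ranged 2-fold or more and hold both CCAAT and CHR letters, with motif matches in capitals.
Cdc20, chr4:118437344-118437493, minus strand: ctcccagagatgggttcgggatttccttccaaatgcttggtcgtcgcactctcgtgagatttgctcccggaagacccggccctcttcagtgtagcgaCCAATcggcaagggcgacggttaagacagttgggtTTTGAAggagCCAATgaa
Espl1, chr15:102296143-102296292, plus strand: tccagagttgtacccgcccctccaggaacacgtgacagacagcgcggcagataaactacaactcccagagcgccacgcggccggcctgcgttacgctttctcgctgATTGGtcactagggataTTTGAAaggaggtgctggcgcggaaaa
Top2a, chr11:99024190-99024339, minus strand: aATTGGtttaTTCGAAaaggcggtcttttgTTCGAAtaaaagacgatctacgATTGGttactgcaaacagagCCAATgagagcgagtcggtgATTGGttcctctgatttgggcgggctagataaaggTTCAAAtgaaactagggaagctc
Mki67, chr7:135716380-135716529, minus strand: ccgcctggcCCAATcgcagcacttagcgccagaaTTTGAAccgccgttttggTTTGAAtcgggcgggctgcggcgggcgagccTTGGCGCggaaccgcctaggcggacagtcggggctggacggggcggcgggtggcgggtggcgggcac
Cenpw, chr10:30200541-30200690, minus strand: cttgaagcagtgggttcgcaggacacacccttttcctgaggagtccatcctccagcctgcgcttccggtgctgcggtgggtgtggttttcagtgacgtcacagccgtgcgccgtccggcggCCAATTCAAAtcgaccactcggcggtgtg
Another pair of genes that hardly ranged is shown beside them, because Bub3 holds the same pair of motifs and Pttg1 holds none in its window.
Bub3, chr7:131560220-131560369, plus strand: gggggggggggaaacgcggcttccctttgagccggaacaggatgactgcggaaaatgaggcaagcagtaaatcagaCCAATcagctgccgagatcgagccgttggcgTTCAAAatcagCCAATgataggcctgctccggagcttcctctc
Pttg1, chr11:43425982-43426131, minus strand: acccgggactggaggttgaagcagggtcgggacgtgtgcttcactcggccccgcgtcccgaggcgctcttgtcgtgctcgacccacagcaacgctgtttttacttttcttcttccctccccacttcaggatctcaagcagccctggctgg
In the Cenpw stretch the CCAAT box runs into a CHR on the opposite strand and shares 1 base with it. Of the 7 printed stretches, that of Mki67 alone holds an E2F motif. These matches describe letters and were not tested as binding sites.

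As a set, the mitotic genes ranged widely over the 6 libraries. All 51 passed the minimum mean of 1 CPM, and 37 ranged 2-fold or more, where 10.5% of all 11516 genes that passed did so. The median fold range was 2.54 over the set and 1.29 over all genes. A range of 4-fold or more was reached by 4 members, or 7.84%, against 1.3% of all genes. Those 4 were Sgo2a, Knl1, Cenps and Cenpf, and without library 1 the number fell to 1, Knl1, with Sgo2a at 3.38-fold, Cenpf at 3.80-fold and Cenps at 2.32-fold. Library 6 was the highest for 38 of the 51, where 21.2% of all genes were highest there. The lowest library was library 1 for 21 members, against 22.6% of all genes, and library 3 for another 21, against 13.2%. Reads of the set made up 0.0926%, 0.0974%, 0.0919%, 0.178%, 0.180% and 0.201% of the counts. A larger share of dividing cells and more RNA of these genes per cell cannot be told apart in bulk libraries.

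**Figure D1:**
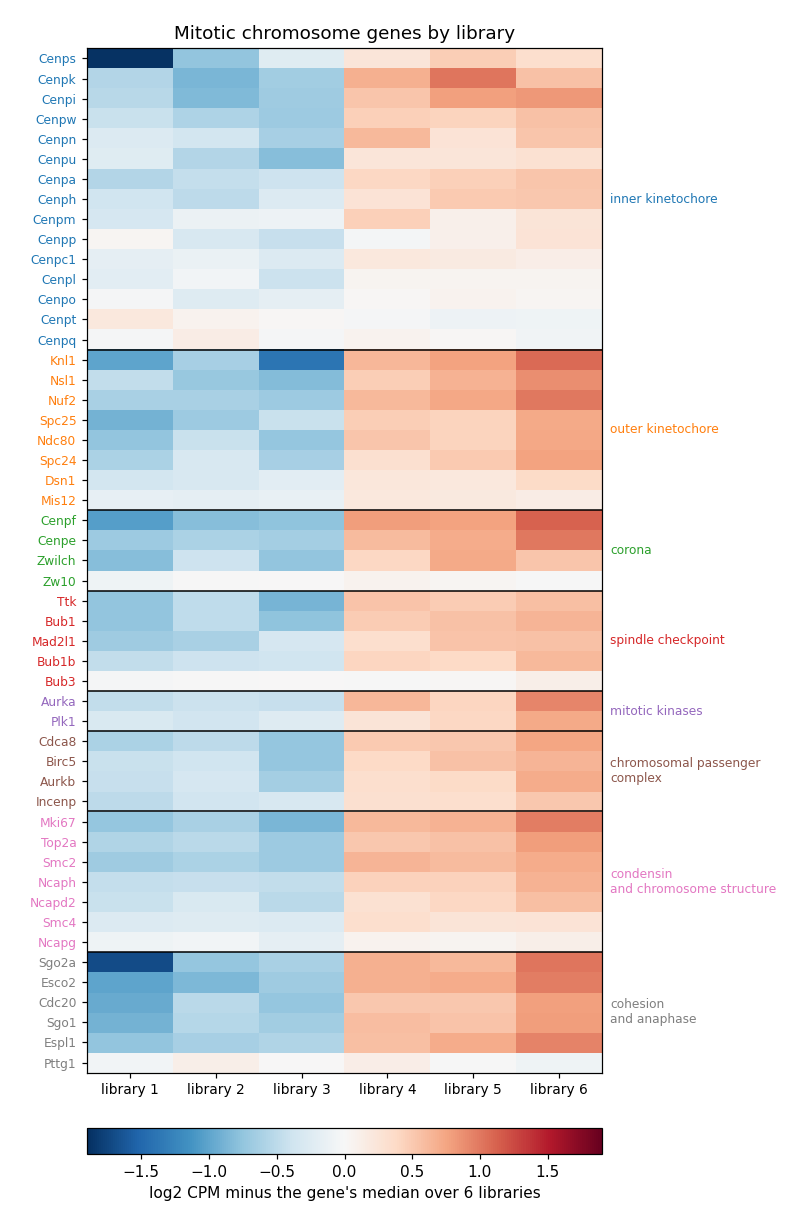
Deviation of each of the 51 genes from its own median over the 6 libraries, in log2 CPM, with libraries in columns and genes in rows grouped by function and ordered by fold range within each group. Library 6 holds the highest value of 38 genes, while the rows of Bub3, Zw10 and Pttg1 stay near white throughout.

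The median member deviated by -0.47, -0.44, -0.57, 0.41, 0.44 and 0.57 log2 units from its own median, while the median over all genes stayed between -0.01 and 0.00 in each library. Library 6 held 32 members at 2-fold or more above library 1, where 3.25% of all genes stood so, and 0 members above library 4, where 0.0868% of all genes did. Library 2 held 1 member 2-fold or more above library 1, against 0.217% of all genes. Mitochondrially encoded transcripts took 2.02%, 1.9%, 1.98%, 2.45%, 2.37% and 2.41% of the counts, and summed B cell markers stood at 4.86, 5.58, 5.48, 8.17, 7.79 and 7.70 CPM. The summed regulatory T cell markers Foxp3, Ikzf2, Il2ra, Ctla4 and Tnfrsf18 stood at 4201, 4140, 4095, 2683, 2724 and 2943 CPM. That sum is mostly Il2ra and Ctla4, which activated T cells also express and which were lower in each of libraries 4, 5 and 6 than in any other. Foxp3 went the other way, at 7.37, 7.66, 7.86, 11.9, 13.4 and 11.2 CPM, and Ikzf2 ranged 1.13-fold. The mitochondrial share, the B cell sum and Foxp3 were higher in libraries 4, 5 and 6, where most members were higher too. The summed T cell markers were lower in each of these libraries than in any other. The largest part of that difference was Cd28, at 848, 786, 783, 524, 510 and 507 CPM. Cd3d, Cd3g, Cd247, Cd5, Lck and Zap70 were lower there too, by smaller amounts. Cd4 and Lat went the other way and were higher in each of libraries 4, 5 and 6, while Cd3e followed neither order. The part of all these measures in the range of the set was not tested.

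Genes of the inner kinetochore ranged unevenly. Of these 15, 8 ranged 2-fold or more, with a median of 2.01-fold. Cenpa, the histone H3 variant that marks the centromere and the most abundant of them by median FPKM, stood at 9.33, 10.1, 10.4, 18.1, 18.9 and 19.9 CPM, a range of 2.13-fold (95% interval 1.86 to 2.46). Libraries 4, 5 and 6 each exceeded libraries 1, 2 and 3. Without library 1 it ranged 1.97-fold. In libraries 1 and 2 Cenpt was the more abundant, at 6.27 and 5.71 FPKM, where Cenpa had 5.22 and 5.64 FPKM. Cenpc1, which bridges CENP-A nucleosomes to the outer layer, ranged 1.38-fold, with 20.6 CPM in library 3 and 28.4 CPM in library 4.

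Among the partners that work as CENP-H, CENP-I, CENP-K and CENP-M, Cenpk had 1.67, 1.33, 1.55, 4.01, 5.12 and 3.68 CPM, 3.73-fold (2.77 to 5.44) from library 2 to library 5. Cenpi ranged from 2.75 to 8.74 CPM, or 3.14-fold. Cenph ranged from 4.91 to 9.95 CPM, or 2.01-fold, and Cenpm from 2.96 to 5.14 CPM, or 1.72-fold. All 4 were higher in each of libraries 4, 5 and 6 than in any of the other libraries, although by unequal amounts. Of the pair that reads the CENP-A nucleosome, Cenpn ranged 2.37-fold, from 2.04 to 4.90 CPM, and Cenpl 1.37-fold, from 6.14 to 8.43 CPM.

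The histone-fold genes of the CENP-T branch, which tethers the NDC80 complex, ran apart. Cenpt stood at 20.1, 18.3, 17.8, 17.2, 16.4 and 16.6 CPM, a range of 1.22-fold (1.09 to 1.38), and library 1 was highest for no other member, against 18.7% of all genes. Its partner Cenpw had its lowest value, 2.72 CPM, in library 3 and its highest, 6.55 CPM, in library 6, a range of 2.38-fold. The ratio of Cenpw to Cenpt in FPKM was 0.321, 0.314, 0.298, 0.697, 0.709 and 0.770. Cenps, which also serves in the Fanconi anaemia pathway, had 13, 34, 50, 75, 82 and 75 reads, or 0.418, 0.983, 1.43, 1.98, 2.36 and 2.11 CPM. Its 5.07-fold range has a wide interval of 3.12 to 11.03, since library 1 rests on 13 reads.

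Of the CENP-O, CENP-P, CENP-Q and CENP-U complex, which receives the kinase PLK1, only Cenpu ranged 2-fold or more, from 1.95 to 4.27 CPM, or 2.16-fold. Cenpq stood at 17.4, 19.6, 17.3, 18.5, 18.0 and 17.0 CPM, a range of 1.15-fold (1.03 to 1.29), and library 2 was highest for no other member, against 15.7% of all genes. Cenpo ranged 1.24-fold, between 11.8 and 14.6 CPM, and Cenpp 1.62-fold, between 2.98 and 4.86 CPM. Exons of Cenpu, Cenpo and Cenpp overlap genes on the opposite strand over 26.7%, 22.5% and 12.6% of their bases in GENCODE M21, and the strand setting of the counting is not given, so reads of Primpol, Adcy3, Ptrhd1, Aspn or Ippk could not be told apart there.

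**Figure D2:**
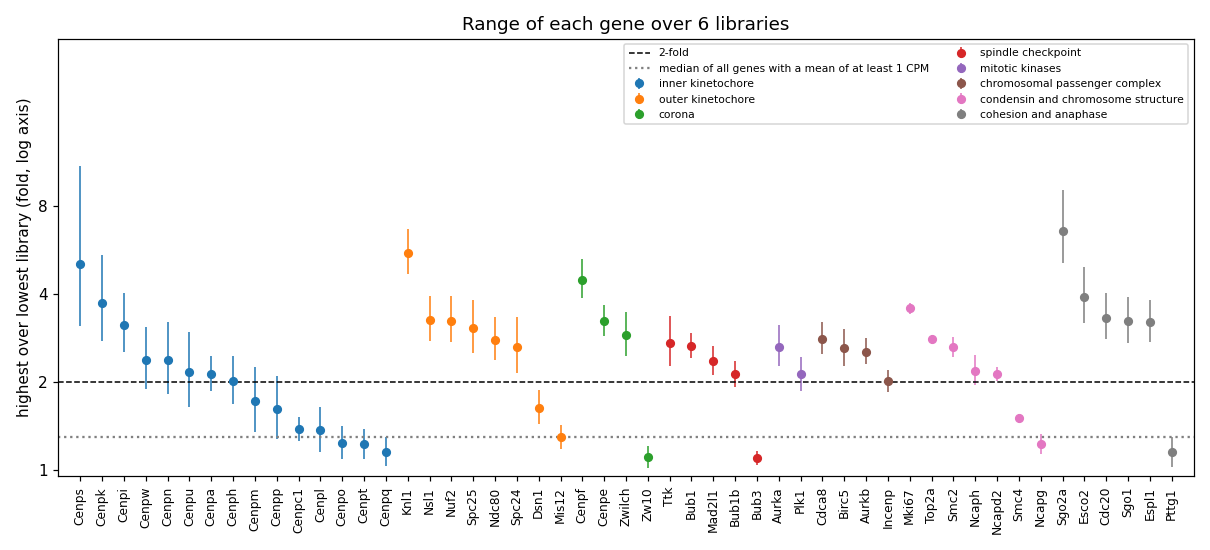
Fold range of each of the 51 genes, highest over lowest library on a log axis, grouped by function, with bars for the 95% counting interval, a dashed line at 2-fold and a dotted line at the median of all genes, 1.29-fold. Of the 51 points, 37 lie at or above the dashed line, and Bub3, Zw10, Pttg1 and Cenpq lie lowest.

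The outer kinetochore, which binds microtubules, ranged more, with 6 of 8 genes at 2-fold or more and a median of 2.92-fold. Knl1, the scaffold on which the checkpoint kinases dock, stood at 5.50, 7.14, 4.19, 17.1, 18.9 and 23.4 CPM, a range of 5.52-fold (4.67 to 6.70). Library 3 was lowest and library 6 highest, and the range was 4.46-fold without library 6. All 4 subunits of the NDC80 complex, the microtubule clamp, moved by like amounts. Nuf2 had 4.80, 4.83, 4.56, 11.3, 12.4 and 14.9 CPM, or 3.24-fold (2.73 to 3.93). Ndc80 ranged 2.79-fold from 5.73 to 16.1 CPM, Spc25 3.06-fold from 3.89 to 12.0 CPM, and Spc24 2.64-fold from 3.21 to 8.58 CPM. Their counting intervals overlap, and each of the 4 was highest in library 6. By median FPKM the 4 stood close together, at 4.64 for Ndc80, 3.78 for Spc24, 3.53 for Spc25 and 3.31 for Nuf2. The ratio of Nuf2 to Ndc80 stayed between 0.595 in library 2 and 0.850 in library 5.

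In the MIS12 complex, which joins the inner layer to NDC80 and KNL1, Mis12, Nsl1 and Dsn1 were each higher in libraries 4, 5 and 6 than in any other library, but by unequal amounts. Mis12 stood at 21.2, 21.0, 21.3, 27.2, 26.8 and 26.1 CPM, a range of 1.29-fold (1.18 to 1.43), close to the 1.29-fold median of all genes. Nsl1 had 5.99, 5.03, 4.67, 11.5, 13.1 and 15.4 CPM, a range of 3.26-fold (2.75 to 3.94). Dsn1 lay between them at 1.63-fold, from 10.9 to 17.8 CPM. In FPKM, Nsl1 was 0.182, 0.155, 0.141, 0.273, 0.315 and 0.379 of Mis12, so Mis12 was the more abundant transcript in every library.

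The corona genes, which act at the outermost kinetochore, also ranged unequally. Cenpf, a large coiled-coil protein of the corona, stood at 6.53, 7.72, 7.92, 23.4, 23.0 and 29.5 CPM, or 4.48-fold (3.88 to 5.27). Cenpe, the kinesin that carries chromosomes to the spindle equator, ranged 3.23-fold, from 10.3 to 33.3 CPM. Zwilch and Zw10 encode 2 of the 3 subunits of the complex that brings dynein and MAD1 to kinetochores, yet they differed. Zwilch ranged 2.89-fold, with 5.6 CPM in library 1 and 16.3 CPM in library 5. Zw10, which also serves in vesicle traffic, had 28.9, 30.3, 30.5, 31.8, 31.2 and 30.4 CPM, or 1.10-fold (1.01 to 1.20). The counting interval of Zw10 comes close to no change. The third subunit gene, Kntc1, stood outside the set and ranged 3.41-fold.

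**Figure D3:**
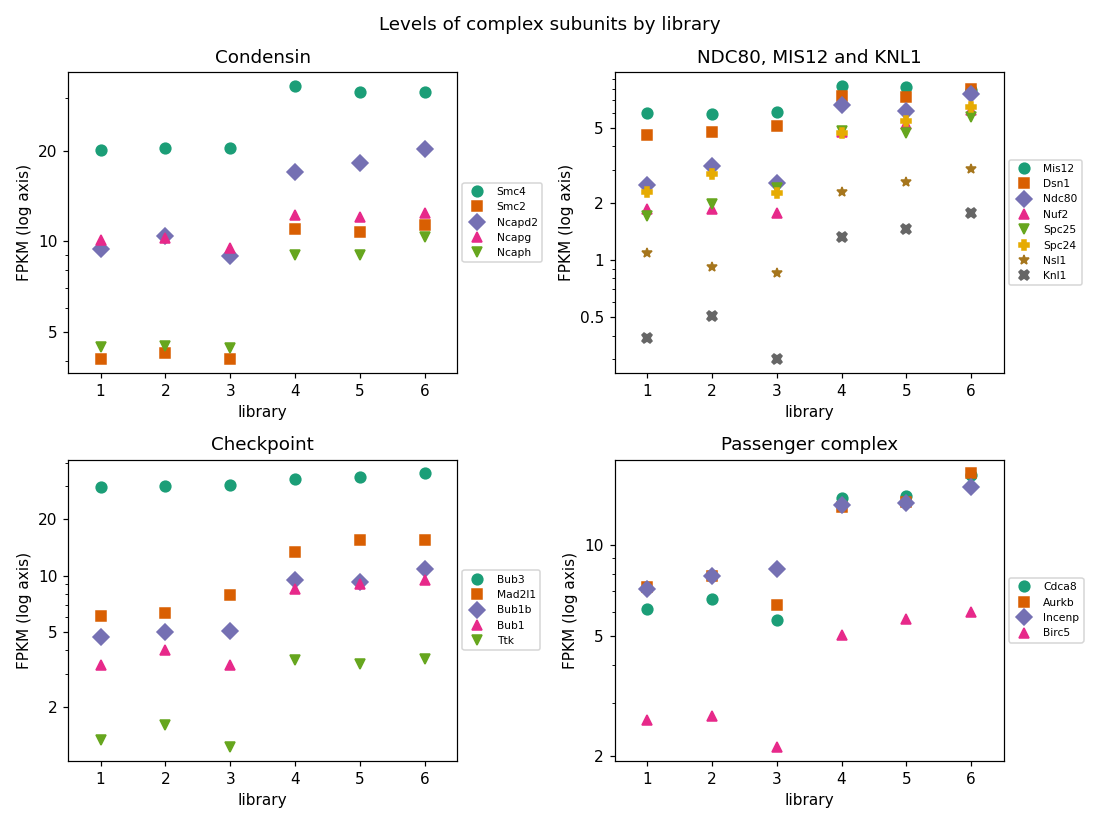
FPKM of the subunits of condensin, of the NDC80, MIS12 and KNL1 assemblies, of the spindle checkpoint and of the chromosomal passenger complex in each library, on log axes, with 1 symbol per gene. Bub3 keeps between 29.7 and 35.2 FPKM while Ttk, Bub1, Bub1b and Mad2l1 spread over the libraries, and Mis12 stays above Nsl1 and Knl1 throughout.

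The spindle checkpoint had 4 of 5 genes at 2-fold or more, with a median of 2.36-fold. Ttk, the kinase also called MPS1 that starts checkpoint signalling, stood at 4.41, 5.32, 4.02, 10.8, 10.3 and 11.05 CPM, or 2.73-fold (2.26 to 3.36). Bub1, a kinase docked on KNL1, ranged 2.66-fold, from 15.0 to 39.9 CPM. Mad2l1, which encodes the checkpoint effector MAD2, ranged 2.36-fold, from 13.3 to 31.5 CPM. Bub1b, which encodes BUBR1 of the mitotic checkpoint complex, ranged 2.12-fold, from 18.2 to 38.7 CPM. For each of these 4, library 6 was highest. Bub3, the adaptor that carries BUB1 and BUBR1 to KNL1, stood apart at 69.5, 70.8, 70.9, 70.6, 71.8 and 76.3 CPM, or 1.10-fold (1.04 to 1.16). That was the narrowest range of the 51 with TMM scaling and all 6 libraries. Bub3 ranged 1.18-fold and Cenpq 1.16-fold with plain total counts, and without library 1 Bub3 ranged 1.08-fold and Zw10 1.05-fold. Bub3 was also the most abundant checkpoint transcript, with a median of 31.7 FPKM against 10.6 FPKM for Mad2l1. The ratio of Bub1 to Bub3 in FPKM was 0.112, 0.132, 0.109, 0.259, 0.269 and 0.269.

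Mitotic kinases ranged in a similar band. Aurka, the kinase of centrosomes and spindle poles, had 6.44, 6.74, 6.57, 13.8, 11.9 and 17.1 CPM, or 2.64-fold (2.26 to 3.13). Plk1, which acts from mitotic entry to cytokinesis, had 9.49, 9.08, 9.84, 13.8, 15.4 and 19.3 CPM, or 2.12-fold (1.86 to 2.44). Both were highest in library 6, and Plk1 ranged 1.69-fold without it. Of the 50-base stretches of Plk1 transcripts, 10.4% recur in other genes, among them the pseudogene Plk-ps1, so its level is uncertain to that extent.

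All 4 genes of the chromosomal passenger complex, which corrects faulty attachments, ranged 2-fold or more, with a median of 2.58-fold. Cdca8, which encodes borealin, stood at 10.4, 11.2, 9.46, 22.3, 22.6 and 26.8 CPM, or 2.82-fold (2.49 to 3.22). Birc5, which encodes survivin, ranged 2.61-fold from 7.54 to 19.8 CPM, and Aurkb, the catalytic subunit, 2.54-fold from 14.3 to 36.3 CPM. Incenp, the scaffold, had 24.2, 26.6, 27.8, 42.1, 42.6 and 48.7 CPM, or 2.01-fold (1.85 to 2.20). Its range was 1.83-fold without library 1, 1.76-fold without library 6 and 1.97-fold with DESeq2 size factors. In FPKM the medians of Incenp, Aurkb and Cdca8 were 10.9, 10.6 and 10.5, while that of Birc5 was 3.86. How close they stand depends on the authors' gene lengths. The ratio of Incenp to Aurkb stayed between 0.898 in library 6 and 1.31 in library 3, and that of Aurka to Aurkb between 0.364 and 0.480.

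Condensin subunits differed between partners. Smc4, an ATPase of the condensin core, was the most abundant subunit, with a median of 25.9 FPKM, and ranged 1.5-fold, from 158 to 237 CPM. Smc2, its partner ATPase, ranged 2.63-fold (2.43 to 2.85), from 23.9 to 62.8 CPM, with a median of 7.47 FPKM. The ratio of Smc2 to Smc4 was 0.201, 0.207, 0.197, 0.332, 0.341 and 0.362. Of the condensin I subunits, Ncapd2 ranged 2.13-fold, from 54.3 to 116 CPM, and Ncaph, the kleisin that closes the ring, 2.19-fold, from 12.2 to 26.8 CPM. Ncapg stood at 34.6, 35.1, 32.2, 38.3, 37.9 and 39.5 CPM, or 1.23-fold (1.13 to 1.33), below the median of all genes. Its exons overlap Lcorl on the opposite strand over 13.4% of their bases. Ncaph in FPKM was 0.440, 0.435, 0.464, 0.736, 0.745 and 0.830 of Ncapg.

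Top2a, the topoisomerase that untangles sister DNA, had the highest median FPKM of the 51, 42.3, and was the most abundant member in libraries 4, 5 and 6. In libraries 1, 2 and 3 Bub3 was higher, at 29.7, 30.3 and 30.6 FPKM, where Top2a had 25.2, 26.4 and 23.6 FPKM. Top2a stood at 138, 144, 128, 292, 302 and 358 CPM, a range of 2.80-fold (2.71 to 2.90). Mki67, the surfactant of the chromosome surface and a common marker of dividing cells, ranged 3.57-fold (3.42 to 3.74), with 80.1, 86.9, 72.7, 203, 209 and 260 CPM. For both genes library 3 was lowest and library 6 highest.

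The genes of cohesion and anaphase had a median of 3.27-fold, with 5 of 6 at 2-fold or more. Sgo2a, a shugoshin that shields centromeric cohesin, had the widest range of the 51 over all 6 libraries, 6.56-fold (5.09 to 9.07), with 1.80, 3.56, 3.90, 9.60, 9.17 and 12.1 CPM. Library 1 lay apart at the low end, and 35.0% of the exon bases of Sgo2a overlap Kctd18 on the opposite strand, while Sgo2b is a further gene with shared sequence. Sgo1, the other shugoshin, ranged 3.23-fold, from 5.02 to 16.3 CPM. Esco2, the acetyltransferase that locks cohesin in S phase, stood at 3.28, 3.61, 4.10, 10.6, 10.8 and 13.0 CPM, or 3.91-fold (3.19 to 4.95). Library 6 was highest and library 1 lowest for all 3 of these genes.

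Cdc20, which activates the anaphase-promoting complex and is the target of the checkpoint, had 4.92, 6.74, 5.76, 13.8, 13.7 and 16.5 CPM, or 3.32-fold (2.80 to 4.02). Of its 50-base stretches, 10.6% recur in other genes. Espl1, which encodes separase, ranged 3.21-fold (2.75 to 3.83), lowest at 5.99 CPM in library 1 and highest at 19.4 CPM in library 6. Pttg1, which encodes securin, the inhibitor bound to separase, did not follow it. It stood at 14.6, 16.5, 15.3, 16.7, 15.2 and 14.5 CPM, or 1.15-fold (1.02 to 1.30), with its lowest value in library 6. The ratio of Espl1 to Pttg1 in FPKM was 0.168, 0.160, 0.182, 0.369, 0.443 and 0.550, a range of 3.43-fold and the widest of the 14 pairs of partners examined.

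**Figure D4:**
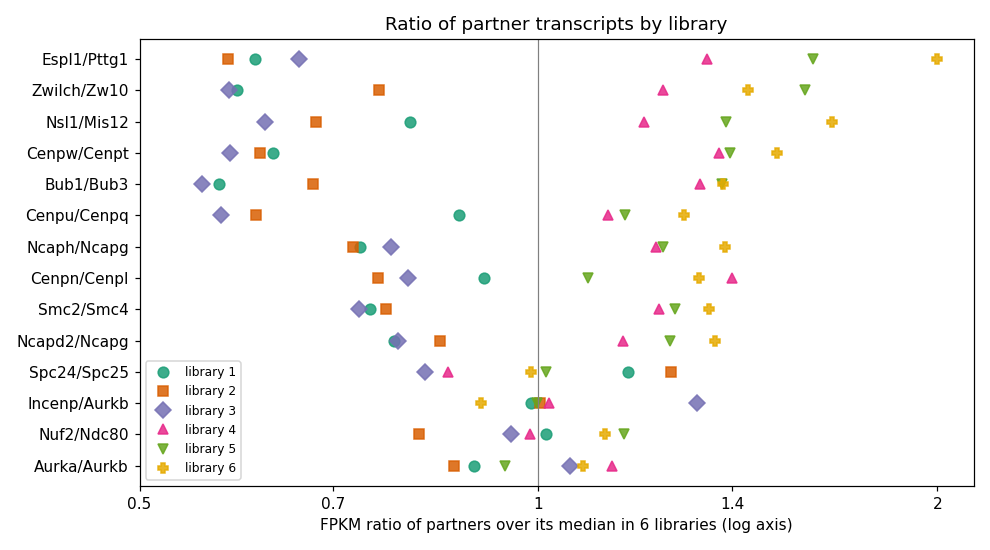
FPKM ratio of 14 pairs of partner transcripts in each library, divided by the pair's median over the 6 libraries, on a log axis with 1 symbol per library. Espl1 over Pttg1 spreads 3.43-fold and Aurka over Aurkb 1.32-fold, and the pairs were chosen after their values were seen.

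The 14 pairs thus fell along a scale. Ratios within the passenger complex, within NDC80 and between the Aurora kinases ranged from 1.32-fold to 1.54-fold. The 5 pairs with Zw10, Mis12, Cenpt, Bub3 or Pttg1 as a partner ranged from 2.47-fold to 3.43-fold, and the 5 others from 1.75-fold to 2.24-fold. The 14 members that ranged under 2-fold were Cenpc1, Cenpl, Cenpm, Cenpo, Cenpp, Cenpq, Cenpt, Mis12, Dsn1, Zw10, Bub3, Ncapg, Smc4 and Pttg1.

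Related lists of mitotic genes ranged by unequal amounts. Of 14 genes of mitotic entry, 12 ranged 2-fold or more, with a median of 2.87-fold. Ccna2, which encodes cyclin A2 and had the highest median FPKM of them, though Pkmyt1, Tpx2 and Cdc25b were higher in libraries 1, 2 and 3, had 13.5, 15.8, 13.6, 38.9, 37.2 and 47.2 CPM, and Mastl, the Greatwall kinase, had the widest range, 4.0-fold. Of 19 measured further kinetochore genes, 9 ranged 2-fold or more, with a median of 1.76-fold. Ska1, a microtubule-binding subunit, ranged 3.54-fold, whereas Hjurp, the chaperone of CENP-A and the most abundant of the list, ranged 1.15-fold, from 265 to 306 CPM. Of 26 DNA replication genes, 13 ranged 2-fold or more, and 8 without library 6. The number was 11 with DESeq2 size factors and 16 with plain total counts or deposited FPKM. Their median was 2.0-fold, with Tyms, a thymidylate synthesis gene, at 3.38-fold and the most abundant, Pcna, the sliding clamp, at 1.61-fold.

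In the lists of the anaphase-promoting complex and of cohesin, the numbers at 2-fold or more lay near the share of all genes, 10.5%. Of 18 genes of the anaphase-promoting complex and its partners, 2 ranged 2-fold or more. These were Fbxo5, the inhibitor EMI1, at 2.52-fold, and Ube2c, a ubiquitin-conjugating enzyme, at 2.39-fold, while Ube2s, with the highest median FPKM although below Anapc16 in libraries 1, 2 and 3, ranged 1.31-fold. Of 12 cohesin genes, 1 did so, Cdca5, which encodes sororin, at 2.04-fold, and without library 2 or library 6 the number was 0. Rad21, the cohesin kleisin and most abundant of that list, ranged 1.31-fold, from 269 to 352 CPM. Of the 3 subunits specific to condensin II, Ncapg2 ranged 2.28-fold, Ncapd3 1.37-fold and Ncaph2, the most abundant, 1.13-fold.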

How the data were processed

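Total RNA was extracted with TRIzol and prepared with the VAHTS Universal V5 kit, as the protocols in the labels state. The submitters' processing notes list the tools HISAT2, fastp, DESeq2, HTSeq and R 3.2.0, with GRCm39 as the build. Their order, the annotation and the strand setting were not given in the sources. Raw counts per gene and FPKM per gene were used as the authors deposited them. The gene lengths used for FPKM were not given. In library 1 Cdca8 had 10.4 CPM and 6.14 FPKM, and Cenpq 17.4 CPM and 2.15 FPKM. Their exons in GENCODE M21 cover 5177 and 2604 bases, so the authors' lengths were not those exon lengths. Over genes with 20 or more reads in each library, the deposited FPKM were proportional to count over library total to within a relative 3.57e-08, so they are another scaling of the same reads and no separate evidence.

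Because no label gives a treatment, no group was formed and nothing was tested between libraries. TMM factors came from edgeR 4.0.16 in R 4.3.3 and lay between 0.958 and 1.04. Ranges were taken on log2 CPM, adding a prior count of 2, which shrinks those of low genes, and genes needed a mean of 1 CPM or more. The computing used Python 3.11.15, pandas 2.3.3, numpy 2.4.6, scipy 1.17.1 and, for figures, matplotlib 3.10.9. Intervals are Clopper-Pearson at 95% (for a fold, of the higher library's share of both counts) and cover counting error only, as amplified reads without molecular identifiers are not independent molecules. A floor of 3 counts stood for 0.0791 to 0.0966 CPM. The procedure for ranges was run on simulated counts in which fold changes were planted in some genes. Counting noise was the only noise in them, so amplification and other variation between libraries were not covered.

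Members and gene lists were chosen with earlier results of these data known. Values in all libraries are given, within each functional group, for the members with the highest median FPKM and with the largest and smallest fold range, and for the 10 largest ranges of the set. Cenpt and the 14 partner ratios were added after their values were seen. Of the other lists, the most abundant gene and the one with the widest range are named, and further genes were named after their values were seen. Recurring sequence was counted over 50-base stretches of GENCODE M21 transcripts (GRCm38), and exon overlap comes from that annotation. RefSeq promoter windows were matched by symbol. The alternatives scaled by DESeq2 1.42.0 size factors, by total counts or as deposited FPKM plus 0.1, set the minimum to 5 CPM or dropped it, lowered the prior count to 0.5, or left out 1 library.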

Additional observations from a re-analysis of the deposited data

Results flagged for a closer look

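Of the 51 genes, 1 had a library far from the others by Dixon's criterion on CPM. For Bub3, library 6, at 76.3 CPM, lay above the next library, at 71.8 CPM, by 0.661 of the whole range, which is past the 95% critical value. Chance flags about 1 in 20 groups. The 6 libraries are not labelled as replicates of a group.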

How the results depend on the processing

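The number of genes ranging 2-fold or more was 37 with plain total counts, deposited FPKM, no minimum or a prior count of 0.5, and 35 with DESeq2 size factors. Where the minimum mean was 5 CPM, only 44 members passed, and 32 of these ranged 2-fold or more. With all members passing, the number lay between 32 and 37 when a library was left out. The number at 4-fold or more lay between 3 and 6 under the scaling, filter and prior alternatives, and between 1 and 4 without a library. The median fold range lay between 2.53 and 2.71, and between 2.20 and 2.54 without a library. The members highest in library 6 numbered between 35 and 38, and 38 or 41 without another library. The share of all genes at 2-fold or more was 4.69% at a minimum of 5 CPM and 32.2% with no minimum. For the 23 members named by rule, 274 single ranges were recomputed. Of these, 24 fell outside the counting interval, and 5 crossed 2-fold, for Cenpa, Plk1 and Incenp. Ranges of the other members were not recomputed singly. Some of them crossed 2-fold too, since Incenp alone does not account for the fall from 37 to 35 with DESeq2 size factors. Leaving out a library can only narrow a range. No paired analysis was possible because the labels put no library in a group. Depth limits Cenps most, with 13 reads in library 1.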

Other observations

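The widest gap between neighbouring values lay in the same place for most members. Every gene has a widest gap, so its place alone does not show separate clusters, and Ncapg, which ranged 1.23-fold, is counted. For 41 of the 51 genes the widest gap between neighbouring values in log2 CPM lay above the third-lowest library, with libraries 1, 2 and 3 below it, where 16.1% of all genes had that arrangement. The opposite arrangement, with libraries 4, 5 and 6 below, held for 0 members and 18.7% of all genes. Knl1, for example, stood at 5.50, 7.14, 4.19, 17.1, 18.9 and 23.4 CPM. The labels do not say what the numbering of the libraries stands for.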
